A study of Homo sapiens with 2 samples.

Results

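The tissue inhibitors of metalloproteinases (TIMPs) and the metalloproteinases that work at the cell surface were examined in Hep3B cells, an established line of human liver cancer (hepatocellular carcinoma). The genes were taken by name: TIMP1, TIMP2, TIMP3, MMP2, MMP7, MMP14, MMP15, MMP16, ADAM10 and ADAM17. A gene counted as measured when the platform annotation gave a transcript cluster, the array's unit of measurement, that symbol and no other. Of these 10 genes, 9 were measured, out of 33616 genes in all. TIMP2 shared its only listed cluster with CEP295NL and was left without a value of its own. The study compared a line whose SOX4 gene was edited by CRISPR/Cas9 (genotype label SOX4 KO), grown with puromycin, with the parental line labelled wildtype, grown without it. Whether the knockout line was 1 clone is not stated in the labels. Both lines were near confluence when total RNA was taken, and each gave 1 array.

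Metalloproteinases are zinc enzymes made as inactive precursors. Secreted matrix metalloproteinases (MMPs) cut collagens and other matrix proteins, membrane-type MMPs do so at the cell surface, and the ADAM proteases release the outer parts of membrane proteins, a process called shedding. TIMPs are small secreted proteins that bind and block the active sites of these enzymes, each with its own preferences. In the liver the balance between TIMPs and MMPs is known from fibrosis, where TIMP1 is made by activated stellate cells, and from the invasive growth of tumours.

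A single array per genotype leaves no replicate check. No p-value or error is therefore given, "higher" and "lower" refer to this pair of arrays, and their number sets the precision. Effects of the genotype, of puromycin, of selection and of the hybridisation cannot be told apart. All values are the deposited log2 values and all differences are knockout minus parental. Each array held 135750 clusters, with a median of 3.80 in knockout cells and 3.83 in parental cells. Values over the 16 bits that a scanner can record occurred in 870 clusters in knockout cells and 838 in parental cells, so a fold holds on the deposited scale only. A gene was taken as above the level filter when the higher of its 2 values was over 4.78, which is the midpoint of such values among all genes. SOX4, the targeted transcription factor gene, stood at 12.44 in knockout cells and 13.14 in parental cells, a difference of -0.70. Expression probes measure mRNA, so the edit itself and any loss of SOX4 protein were not tested here. Liver cell markers were present in both lines. ALB, which encodes albumin, stood at 18.84 in knockout cells and 18.87 in parental cells, and all 9 measured markers lay above the level filter. Of these, 2 were at least 2-fold lower, AFP at 9.73 in knockout cells and 15.50 in parental cells and APOA1 at 11.27 in knockout cells and 12.44 in parental cells.

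Of the 9 measured genes, 2 (TIMP1 and MMP15) were 2-fold or more above the parental value and 2 (TIMP3 and MMP16) 2-fold or more below it. Over all 33616 genes, 3.36% were as far above and 1.94% as far below. Among the 16808 genes above the level filter, where 7 of the 9 lay, 6.50% were higher and 3.64% lower, and among the protein-coding genes of that set 8.31% were higher and 4.30% lower. TIMP1 passed that filter only through the knockout array, and TIMP3 and MMP16 only through the parental array. Their place above the filter is therefore not independent of their differences. The genes were chosen with earlier results of these arrays known, so their larger share is not independent evidence. The median difference of the 9 genes was -0.26, against 0.00 over all genes, and the differences ran from 5.95 for TIMP1 to -3.26 for MMP16. The changes therefore did not go one way, and each of the inhibitor and membrane-type groups held 1 gene that was higher and 1 that was lower by 2-fold or more.

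**Figure D1:**
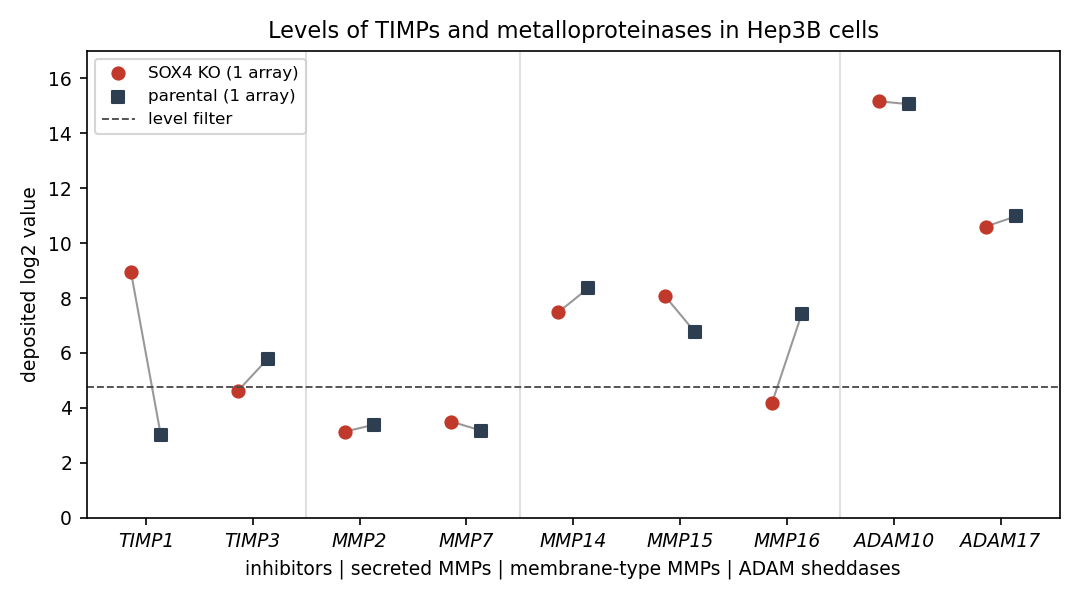
Deposited log2 value of each of the 9 measured genes, with the SOX4 knockout array as a circle and the parental array as a square, 1 array each; the dashed line is the level filter at 4.78. TIMP1 stood at 8.96 in knockout cells and under the line in parental cells, MMP16 showed the opposite arrangement, and MMP2 and MMP7 lay under the line in both.

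Among the inhibitors, TIMP1 showed the widest gap of the family. TIMP1 encodes a secreted inhibitor that blocks most soluble MMPs and ADAM10 but acts weakly on several membrane-type MMPs. Its cluster on chromosome X stood at 8.96 in knockout cells and at 3.01 in parental cells. The knockout array was thus well above the level filter, while the parental value lay under the lower quartile of all clusters of that array, 3.23. The difference of 5.95 corresponds to 62.0-fold on the deposited scale, a size that depends on a parental signal not shown to exceed background. In bulk RNA, more cells with a transcript and more of it per cell cannot be told apart. It was the 8th highest difference of all 33616 genes. Of 2261 other genes of like level (a mean within 0.5 log2 of that of TIMP1), 0 were higher by more and 136 were at least 2-fold higher. That mean lay close to neither value of TIMP1, and a gene of that mean could be higher by more only from a very dim parental value. The count of 0 is therefore largely set by the floor of the array and describes these arrays only.

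TIMP3 went the other way. TIMP3 binds to the extracellular matrix and is the TIMP that inhibits ADAM17. Its cluster on chromosome 22 stood at 4.62 in knockout cells, under the level filter, and at 5.78 in parental cells, above it. The difference was -1.17, or 2.25-fold, close to the 2-fold limit. Of 3249 genes of like level, 48 (1.48%) were lower by more. TIMP3 lies inside SYN3, a synapsin gene, in the RefSeq annotation, and SYN3 stood at 4.83 in knockout cells and 5.92 in parental cells, a difference of -1.09. Whether the probes of the 2 clusters share transcripts was not tested, so the lower signal cannot be assigned to TIMP3 apart from its host gene. TIMP1 lies inside another synapsin gene, SYN1, whose values were 3.28 in knockout cells and 3.64 in parental cells. SYN1 was under the level filter in both lines, so a fall or a small rise in it was not detectable.

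The cluster listed under both CEP295NL and TIMP2 stood at 9.71 in knockout cells and 11.13 in parental cells, a difference of -1.42. The annotation places CEP295NL over part of TIMP2, so this value belongs to neither gene alone and was not counted. TIMP4, the remaining TIMP, lies inside the synapsin gene SYN2. It stood at 8.52 in knockout cells and 6.90 in parental cells, a difference of 1.63, whereas SYN2 was under the level filter in both lines.

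**Figure D2:**
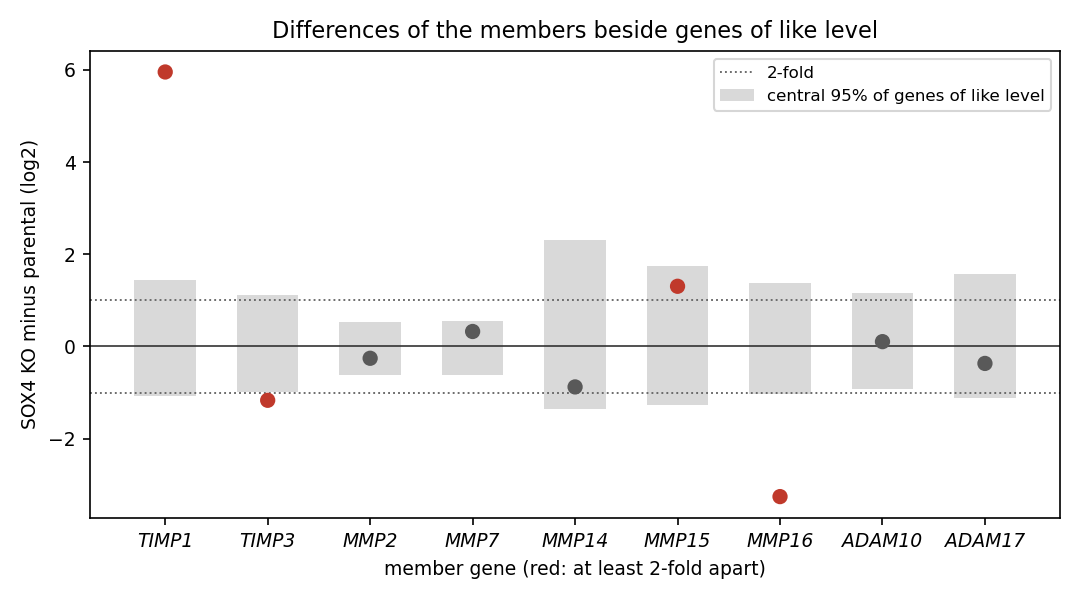
Difference of each gene (SOX4 knockout minus parental, log2) with dotted lines at 2-fold; grey bars span the central 95% of all genes whose mean level lay within 0.5 log2 of that gene's, as a description of the same 2 arrays. TIMP1 and MMP16 lie far outside their bars, TIMP3 just outside, and MMP15 and MMP14 inside. For TIMP1 and MMP16 the mean level that set the bar lay close to neither array's value.

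The membrane-type MMPs did not move together. MMP16 encodes a membrane-anchored protease that can activate the precursor of MMP2. Its cluster on chromosome 8 stood at 4.17 in knockout cells and at 7.43 in parental cells. The knockout value lay under the level filter and the parental value well above it. The difference of -3.26, or 9.57-fold, was the 15th lowest of all genes, and of 2407 genes of like level 2 were lower by more. As for TIMP1, the mean that set this window lay close to neither value.

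MMP15, a related transmembrane protease, stood at 8.07 in knockout cells and 6.76 in parental cells. Both values were above the level filter, and the difference was 1.31, or 2.47-fold. Differences of this size were common at that level, since 82 of 1649 genes (4.97%) were higher by more. MMP14, the best-known activator of the MMP2 precursor and itself a collagenase, stood at 7.48 in knockout cells and 8.36 in parental cells. Its difference of -0.88, or 1.84-fold, was just short of 2-fold, and 103 of 1527 genes of like level (6.75%) were lower by more. The 3 membrane-type genes thus spanned 1.31 to -3.26, with MMP14 between the others. MMP24, another membrane-type MMP, differed by 0.87, with 4.87 in knockout cells and a parental value under the level filter, while MMP17 and MMP25 lay under the level filter.

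The secreted enzymes MMP2 and MMP7 were dim in both lines. MMP2, a gelatinase that MMP14 and MMP16 can activate, stood at 3.14 in knockout cells and 3.39 in parental cells. MMP7, also called matrilysin and a small epithelial MMP that cuts many surface proteins, stood at 3.50 in knockout cells and 3.18 in parental cells. Neither gene passed the level filter, and their differences of -0.26 and 0.32 lay within the central 95% of genes of like level. Neither rose above the filter in knockout cells. A fall or a small rise in either gene was not detectable at these signals, which does not show that there was none. The 14 other secreted MMP genes, among them the collagenases and stromelysins, also lay under the level filter in both lines, with differences between -0.54 for MMP11 and 0.24 for MMP3.

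The sheddases ADAM10 and ADAM17 differed by less than 1.5-fold between the lines. ADAM10, the protease that starts ligand-driven Notch cleavage and sheds cadherins, stood at 15.16 in knockout cells and 15.06 in parental cells. ADAM17, which releases tumour necrosis factor and several growth factors of the EGF family, stood at 10.60 in knockout cells and 10.97 in parental cells. Differences of 0.10 and -0.37 are small beside those of TIMP1 and MMP16. Of 443 genes of ADAM10's level 178 were higher by more, and of 1386 genes of ADAM17's level 292 were lower by more.

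The 4 genes past 2-fold were next set beside the genes that flank them, 5 measured genes on each side in RefSeq order. The 10 neighbours of TIMP1 had a median difference of -0.04 and none was 2-fold apart, from ARAF at 0.65 to the host gene SYN1 at -0.36. The neighbours of MMP16 had a median of 0.14 and ran from NBN at 0.58 to DECR1 at -0.47. Those of MMP15 had a median of -0.20 and likewise none past 2-fold. Around TIMP3 the median was -0.03, and SYN3, which contains it, was the one neighbour past 2-fold. MMP14, itself short of 2-fold, lay beside LRP10, a receptor gene that was 1.85 higher in knockout cells while MMP14 was lower. Of the 10 neighbours of MMP14, 2 were past 2-fold upwards, LRP10 and PRMT5-AS1 at 1.35, and none downwards, with a median of 0.09. The gaps of TIMP1, MMP15 and MMP16 were therefore not seen in the brighter genes around them. Of 10 neighbours each, 4 of TIMP1, 6 of MMP15 and 7 of MMP16 lay above the level filter. In the dimmer neighbours a fall or a small rise was not detectable.

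**Figure D3:**
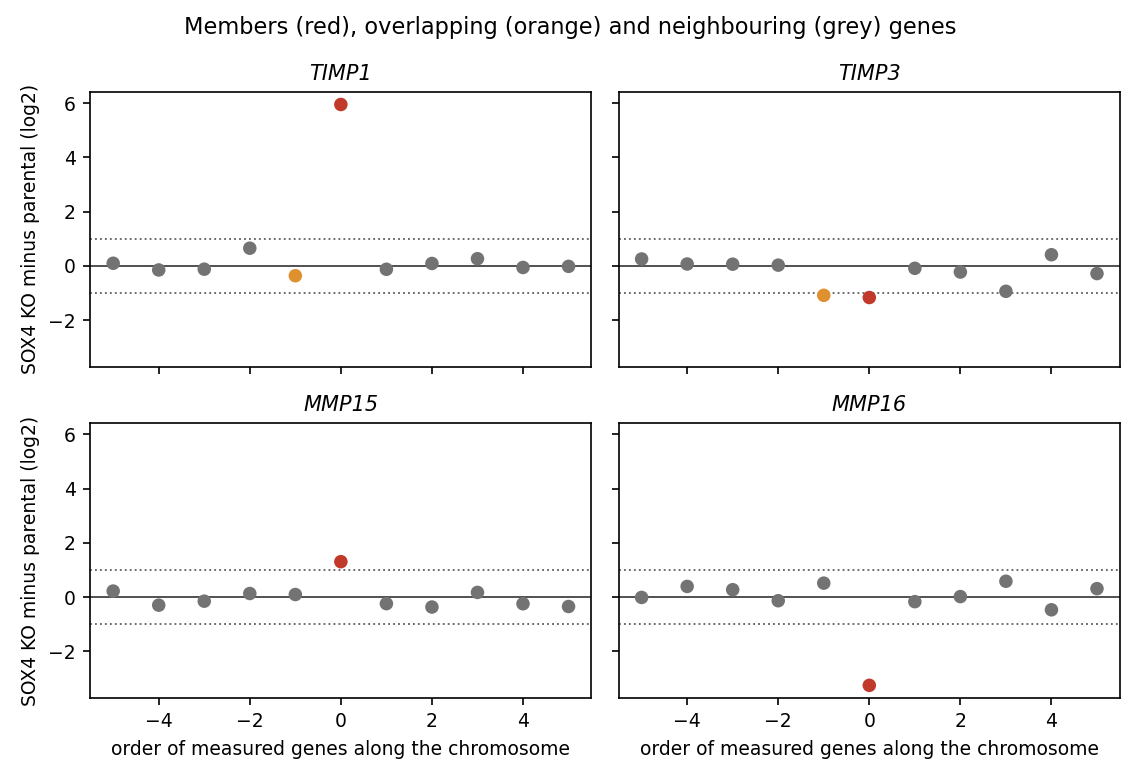
Differences (SOX4 knockout minus parental, log2) of the 4 genes at least 2-fold apart, in red at position 0, and of 5 measured genes on each side in chromosomal order; orange marks a gene that overlaps the one in red, and dotted lines mark 2-fold. TIMP1, MMP15 and MMP16 are the only points past 2-fold in their panels, where some neighbours lie under the level filter. SYN3 at -1.09 lies beside TIMP3 at -1.17.

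Upstream sequence is shown for TIMP1, MMP15 and TIMP3, the genes past 2-fold for which it was at hand, because SOX4 is a transcription factor. RefSeq sequences of build GRCh38.p14 matched 7 of the 10 genes, all but TIMP2, MMP2 and MMP16. The 250 bases before each start were searched on both strands for the SOX core AACAAAG and its short form AACAAT, the AP-1 site TGANTCA, the AP-1 variant TGAGTAA, the ETS site CAGGAAG, the RUNX site TGTGGTT and the TATA box TATAAA. Matches are in capitals, and the stretches are chrX:47582186-47582435 (plus strand) for TIMP1, chr16:58025504-58025753 (plus strand) for MMP15 and chr22:32801455-32801704 (plus strand) for TIMP3.
TIMP1: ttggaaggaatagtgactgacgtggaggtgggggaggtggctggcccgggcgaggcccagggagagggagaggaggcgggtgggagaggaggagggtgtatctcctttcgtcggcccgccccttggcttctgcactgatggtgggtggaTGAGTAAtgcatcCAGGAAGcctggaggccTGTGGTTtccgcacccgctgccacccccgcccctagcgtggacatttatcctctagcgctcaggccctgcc
MMP15: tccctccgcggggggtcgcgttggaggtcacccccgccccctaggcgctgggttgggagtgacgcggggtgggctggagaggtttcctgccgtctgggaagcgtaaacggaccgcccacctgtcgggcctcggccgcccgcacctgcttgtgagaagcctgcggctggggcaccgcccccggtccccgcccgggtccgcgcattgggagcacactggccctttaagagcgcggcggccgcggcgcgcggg
TIMP3: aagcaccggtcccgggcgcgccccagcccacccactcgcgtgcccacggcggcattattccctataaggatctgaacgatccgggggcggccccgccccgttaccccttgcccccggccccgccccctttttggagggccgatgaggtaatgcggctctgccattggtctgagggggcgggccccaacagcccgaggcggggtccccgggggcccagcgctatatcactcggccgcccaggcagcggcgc

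The TIMP1 stretch held 3 matches close together, the AP-1 variant from 101 to 95 bases before the start, the ETS site from 88 to 82 and the RUNX site from 71 to 65. Of all 35116 promoters of this length, 2.21% held the AP-1 variant, 10.5% the ETS site and 3.65% the RUNX site. None of the motifs searched occurred in the MMP15 or TIMP3 stretch. G and C made up 74.8% of the MMP15 stretch, with 31 CpG pairs, and 72.4% of the TIMP3 stretch, with 26. TIMP1 had 64.8% and 12 CpG pairs, against medians of 58% and 11 over all promoters. MMP7 differed in kind, with 33.6% G and C, an AP-1 site from 67 to 61 bases before the start and a TATA box from 30 to 25. The ETS site also occurred in the MMP7 and ADAM17 stretches. Neither SOX form was found in any of the 7 stretches, while 4.50% of all promoters held AACAAAG and 8.98% held AACAAT. A match of letters is a description and not a binding site, and the absence of these letters from this window says nothing about SOX4 elsewhere.

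Genes related to the family by function were examined as lists, to be read beside the median of 0.00 and the shares of 3.36% and 1.94% over all genes. In several lists most genes lay above the level filter, such as 11 of 13 partners and convertases and 17 of 23 shed substrates. For those lists the nearer measure is the genes above that filter, with 6.50% higher, 3.64% lower and a median of 0.04. Among its protein-coding genes the shares were 8.31% and 4.30%. Inhibitors of MMPs other than TIMP1 to TIMP3 held 5 measured genes, of which 2 passed 2-fold upwards and 2 downwards. Besides TIMP4, the membrane-anchored MMP inhibitor gene RECK was higher, at 8.27 in knockout cells and 7.24 in parental cells, a difference of 1.03 that dropped to 0.96 when the trend of differences with level was removed. A2M and PZP, which encode large plasma proteins that trap proteases, were lower. A2M stood at 5.32 in knockout cells and 7.62 in parental cells, and PZP at 4.02 in knockout cells and 5.50 in parental cells.

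Among the other ADAM genes, 1 of 15 passed 2-fold upwards and 1 downwards. ADAM9, a further membrane sheddase, was 1.63 higher at 15.07 in knockout cells and 13.44 in parental cells. ADAM22, which lacks protease activity and serves in neurons as a receptor, stood at -1.79. Of 18 measured ADAMTS genes, secreted relatives that cut proteoglycans and procollagens, 3 passed 2-fold downwards and none upwards. ADAMTS1 stood at -2.18 and ADAMTS9 at -1.27, and ADAMTS16, named to complete the count after its values were seen, also at -1.27. The knockout value of ADAMTS16 lay under the level filter. ADAMTS6 at -0.99 was just short of 2-fold, and 4 genes of the list were past 2-fold downwards when the trend with level was removed. The median of the ADAMTS list was -0.20, and -1.13 over the 6 genes above the level filter.

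The next list held proteins that carry ADAM10 and ADAM17 to the surface and convertases that activate the precursors. Of 13 genes, 2 were 2-fold or more above the parental value and none as far below it, and the median was 0.56. PCSK5, a convertase that cleaves precursor proteins, stood at 10.30 in knockout cells and 6.13 in parental cells, a difference of 4.17. TSPAN15, a tetraspanin that binds ADAM10 and steers its choice of substrate, stood at 10.38 in knockout cells and 8.37 in parental cells, a difference of 2.01. FURIN, the main convertase of membrane-type MMPs, was 0.54 higher. The lowest above the level filter were TSPAN5 at -0.17 and PCSK7 at -0.09. ADAM10 itself differed by 0.10, as given above, so its partner TSPAN15 differed more than the protease.

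Known shed substrates of ADAM10 and ADAM17 had a median of 0.34 over 23 measured genes, with 2 past 2-fold upwards and 1 downwards. CD44, the hyaluronan receptor, which is also cut by MMP14, stood at 9.03 in knockout cells and 4.95 in parental cells. Its difference of 4.07 came down to 2.25 when all clusters of the gene were averaged. MICB, a stress ligand seen by natural killer cells, stood at 11.91 in knockout cells and 8.18 in parental cells. ERBB4, a receptor tyrosine kinase, stood at -1.16 and APP, the amyloid precursor, at -0.53. Pericellular substrates of MMP14 and MMP2 had 2 of 10 measured genes at least 2-fold higher, CD44 again and VTN at 1.35, and none lower. Their lowest were LRP1 at -0.56 and COL1A1 at -0.45.

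The plasminogen system, the serine protease pathway that also activates MMP precursors, had 2 of 9 measured genes past 2-fold upwards and none downwards, and a median of -0.19. SERPINE2, an inhibitor of plasminogen activators and thrombin, stood at 15.03 in knockout cells and 10.73 in parental cells. S100A10, which with annexin A2 binds plasminogen at the cell surface, stood at 16.48 in knockout cells and 13.61 in parental cells. SERPINF2, the plasmin inhibitor, was at -0.90 and the plasminogen receptor gene PLGRKT at -0.79.

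Of 9 surface proteins reported to bind TIMPs, 3 passed 2-fold upwards and none downwards. ITGA3, an integrin subunit linked to TIMP2, was 1.87 higher and ITGB3 1.64 higher, both with a parental value under the level filter. ITGAV, named to complete the count after its values were seen, was 1.54 higher. CD74, reported to bind TIMP1, differed by -0.84 and LRP1, an endocytic receptor, by -0.56. CD63, the tetraspanin known as a TIMP1 receptor, differed by -0.18. The list's median was 0.31.

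Factors of the AP-1, ETS and RUNX families and STAT3, known regulators of TIMP and MMP genes, had 5 of 16 members past 2-fold upwards and 1 downwards. JUNB was 1.23 higher and RUNX1 1.22 higher, but RUNX1 was only 0.41 higher when all its clusters were averaged. STAT3 at 1.20, FOSL1 at 1.16 and RUNX2 at 1.04 make up the count and were named after their values were seen. FOSL1 and RUNX2 had a parental value under the level filter. ETV1, an ETS factor, stood at -1.96 and ETV4 at -0.19. The median of the 16 was 0.15.

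**Figure D4:**
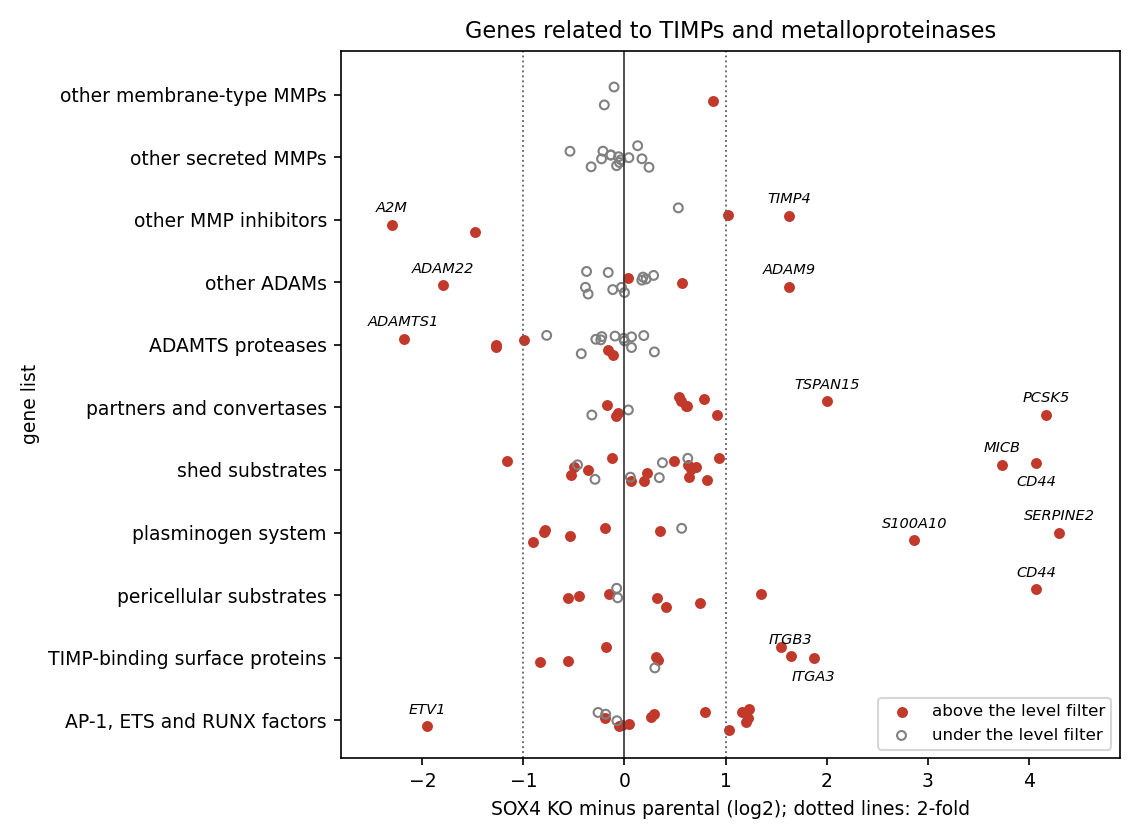
Differences (SOX4 knockout minus parental, log2) of the genes in 11 related lists, 1 point a gene, filled where the gene lay above the level filter and open where it did not; dotted lines mark 2-fold and names are given for genes chosen by the naming rule at 1.5 log2 or more. The other secreted MMPs are all open points near 0, whereas PCSK5, MICB and SERPINE2 stand at 3.74 to 4.30, and CD44 at 4.07, or 2.25 with its clusters averaged.

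Markers of other cell types were read beside TIMP1, since stromal cells make much of it in tissue. Of 9 measured fibroblast and stellate markers, 1 passed 2-fold, LUM at 12.69 in knockout cells and 7.90 in parental cells. The other markers differed by between -0.74 for PDGFRA and 0.17 for FAP. Of the 9 markers, 5 lay above the level filter in both lines, namely LUM, COL1A1, COL1A2, PDGFRA and PDGFRB. DCN, ACTA2, THY1 and FAP lay under the level filter in both lines. Summed over the list, the log2 levels came to 52.7 in knockout cells and 49.4 in parental cells. LUM alone was 4.79 higher, more than the gap between these sums, and the list's median difference was -0.13. All 6 endothelial markers lay under the level filter, with levels from 3.07 to 4.47 in knockout cells and 2.77 to 4.64 in parental cells, and summed levels of 21.9 in each line. Of 5 leukocyte markers, LYZ was 2.25 higher in knockout cells while PTPRC, CD3E and ITGAM lay under the filter. CD14 stood at 6.26 in knockout cells and 5.92 in parental cells. The summed levels were 30.8 in knockout cells and 28.7 in parental cells, a gap smaller than that of LYZ alone, and the list's median difference was 0.00. The part of LUM and LYZ in the TIMP1 difference was not tested.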

How the data were processed

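Biotin-labelled total RNA of the SOX4 knockout and the parental Hep3B line was read on 1 whole-transcript Affymetrix array each, with groups taken from the genotype labels. Per the submitters' processing notes, the deposited log2 values come from RMA, which corrects background, scales arrays to each other and sums up probes per cluster, and from Transcriptome Analysis Console. Tool versions and genome build: not given in the sources used here. Base 2 is RMA's usual base and no label states it. No detection calls were at hand.

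Names came from the platform annotation, with 1 symbol for 36176 clusters and several for 1119, which named no gene. The cluster with the highest mean of both arrays stood for its gene. RefSeq GRCh38.p14 gave chromosomes, gene order and overlaps for 24344 of 33616 genes. No test was possible, so 2-fold (1 on the log2 scale) served as a rule of size. The counting was run on simulated arrays with planted differences, as a check of the code. Their noise was taken from genes under the level filter, so the run does not show how reliable a 2-fold difference is. Alternatives were quantile normalization, median centring, removal of a running median over 501 genes, averaged clusters, other fold limits and the level filter. The genes named were the 10 of the family, SOX4, overlapping and flanking genes of those past 2-fold, and up to 2 of the highest and 2 of the lowest per list above the level filter. FURIN, CD63, MMP3, MMP11, MMP17, MMP25, ADAMTS6, LRP10, PRMT5-AS1, CGNL1, the markers and those said to complete a count were named outside that rule, after their values were seen. The members and lists were chosen with earlier results of these data known. Some genes on the lists were not analysed here. Python 3.11.15 and pandas 2.3.3 were used.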

Additional observations from a re-analysis of the deposited data

How the results depend on the processing

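Each of the 9 genes kept its direction and its side of 2-fold under all 4 alternatives of scaling, trend and cluster choice. Averaging clusters could not change these values, since each of the 9 genes had 1 cluster. Median centring could only move all differences by the same small amount. Across the 4 alternatives, TIMP1 ranged from 5.92 to 5.99, MMP16 from -3.31 to -3.23, MMP15 from 1.28 to 1.34, TIMP3 from -1.17 to -1.14 and MMP14 from -0.95 to -0.85. At a limit of 4-fold, 1 gene (TIMP1) was higher and 1 (MMP16) lower, and at 1.5-fold 2 were higher and 3 lower, with MMP14 added. The median of the 9 genes, -0.26, moved to no more than -0.22 under the 4 alternatives, and over the 7 genes above the level filter it was -0.37. Counting the cluster listed under CEP295NL and TIMP2, an alternative chosen after seeing the data, gave 3 lower and a median of -0.31. A set of 54 other genes was followed in the same way. It held list genes named by the rule or past 2-fold, measured overlapping genes, SOX4 and the flanking genes LRP10 and CGNL1, but not every gene named above. Of these 54, 2 lost 2-fold, RECK at 0.96 after trend removal and RUNX1 at 0.41 with its clusters averaged. CD44 stayed past 2-fold but stood at 2.25 in place of 4.07 with its clusters averaged. Of 120 list counts, 119 stayed within 1.5 times, and the inhibitor list had 1 gene in place of 2 higher after trend removal. No paired analysis was possible because each genotype had 1 array. Signals near background limit MMP2, MMP7, the parental value of TIMP1 and the knockout values of MMP16 and TIMP3.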
